A study of Mus musculus with 4 samples.

Results

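ARID1A peaks on mouse chromosomes 5, 10 and 11 were described in 266-6 cells, a mouse pancreatic acinar cell line. The members are all rows of the 4 peak lists that lie on one of these 3 chromosomes, 2739 of 11220 rows. Control replicates 1 and 2 had 978 of 4031 and 1737 of 7112 peaks there, and epidermal growth factor (EGF) replicates 1 and 2 had 16 of 57 and 8 of 20. ARID1A was mapped by chromatin immunoprecipitation with sequencing (ChIP-seq), with an antibody to ARID1A and 2 libraries per group. All cells were starved of serum for about 14 h. The EGF group then received 40 ng/ml EGF for 8 h, and the control group received 0.1% bovine serum albumin. The line serves as a model of acinar cells, and the lists hold no expression values against which its identity could be checked. Whether 2 libraries of the same group are separate cultures is not said in the labels. The p-values below therefore concern only these libraries, and the spread within a group may be technical. Each is the share of the assignments of libraries to groups that differ at least as much as the real one.

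ARID1A is the large AT-rich-interaction subunit of the BAF form of the SWI/SNF complexes, which use ATP to slide or evict nucleosomes. BAF complexes are known to act at enhancers, where they keep DNA open for transcription factors. EGF binds a receptor tyrosine kinase and signals to the nucleus through the RAS and ERK kinases, a pathway known in the pancreas for driving acinar cells towards a duct-like state. Set against the control group, the EGF group addresses where ARID1A binds once the growth factor is present. Positions are given in mm9. Genes and sequences were left out, because the reference used here is of another build.

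The 3 chromosomes were chosen by the density of their control peaks, so that density is given as a description with no test. Chromosome 10 had 2.86 and 4.73 peaks per Mb in control replicates 1 and 2, chromosome 11 had 2.51 and 4.84, and chromosome 5 had 2.12 and 3.75. The other 16 autosomes together had 1.5 and 2.64 per Mb. Relative to the autosomal mean, averaged over both lists, chromosomes 10, 11 and 5 ranked 2, 3 and 6 of the 19 autosomes, at 1.67, 1.58 and 1.28 times. Chromosome 15 was denser than all 3, at 1.97 times, and chromosomes 16 and 19 were denser than chromosome 5, at 1.51 and 1.37 times. Chromosome 4 followed chromosome 5 at 1.19 times. The label "dense" therefore holds for chromosomes 10 and 11, while chromosome 5 lay below 3 chromosomes that are not members.

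**Figure D1:**
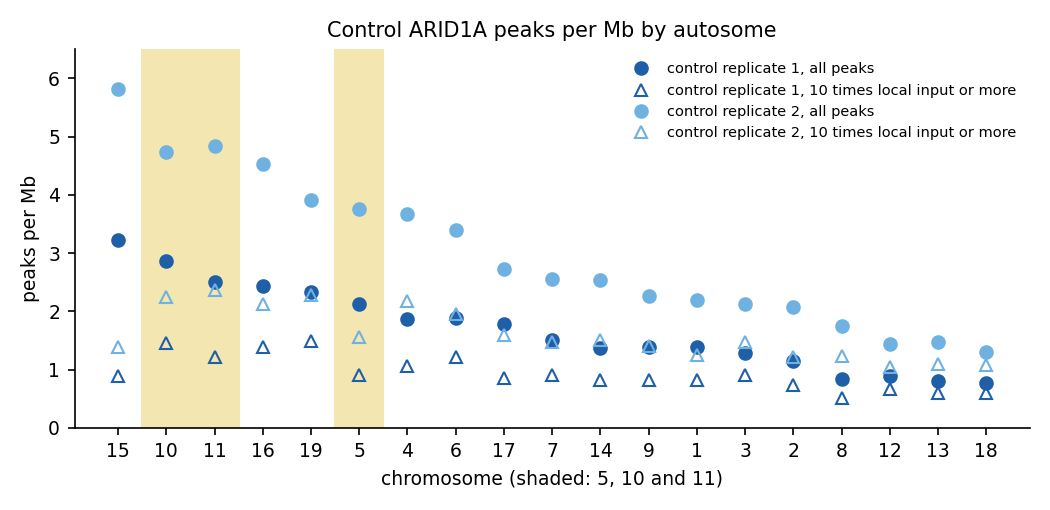
Control peaks per Mb (vertical axis) on each of the 19 autosomes, ordered by the mean relative density of the 2 control lists; filled circles are all peaks and open triangles those with at least 10 times as many summit reads as the local input. The shaded chromosomes 10 and 11 stand at ranks 2 and 3 and chromosome 5 at rank 6, and chromosome 15 leads only among all peaks.

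The input DNA read under the peaks was also high on these chromosomes. The local input is the number of input DNA reads around a summit that the peak caller took as background, and it was recovered from the deposited fold and p. Its median at control peaks was 1.69 and 1.74 times the genome-wide input on chromosome 5 (control replicates 1 and 2), 1.56 in both lists on chromosome 10, and 1.46 and 1.56 on chromosome 11. Over the other autosomes it was 1.30 in both lists, with chromosome 15 highest at 2.59. The local input is the largest of several windows, so it cannot fall under the genome-wide value. It stood at that floor for 5.42% and 5.76% of the peaks on the 3 chromosomes, against 14.1% and 15.3% of those on the other autosomes. The part of the input in the peak density was not tested.

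Peaks that stood far above their local input were less unevenly spread. Such a bound divides by the local input, which was higher on these chromosomes. At equal summit reads, a peak over a higher input reaches this bound less easily. Of the members, 465 of 978 (47.5%) and 797 of 1737 (45.9%) had at least 10 times as many summit reads as the local input, where 55.6% and 54.1% of all peaks of the 2 control lists did. Counted by these peaks alone, the 3 chromosomes had 1.18 and 2.02 per Mb and the other autosomes 0.872 and 1.49, a density ratio of 1.35, against 1.66 ± 0.0104 (SD, n = 2) for all peaks. By these peaks chromosome 5 stood at ranks 7 and 8 of the 19 autosomes in control replicates 1 and 2, chromosome 10 at ranks 2 and 3, and chromosome 11 at ranks 4 and 1.

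Peak density varied along each chromosome. A 10 Mb bin was called dense where both control lists had at least 2 times their autosomal mean, and sparse where both had at most 0.5 times. Dense bins numbered 8 of 42 on the 3 chromosomes, against 8.91% of all autosomal bins, and sparse bins 3 of 42, against 25.2%. The density chose the chromosomes, so nothing is read from these shares. Over the 36 full bins, the relative densities of the 2 lists correlated with r = 0.92 and rho = 0.92, as a description of lists with the same recovered input background.

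Chromosome 10 had 4 of the 8 dense bins, at 70 to 80, 80 to 90, 90 to 100 and 110 to 120 Mb. They are 30.8% of its bins and held 48.8% and 48.3% of its peaks in control replicates 1 and 2. On chromosome 11 the 2 dense bins (15.4% of its bins) held 28.2% and 29.7% of the peaks, and on chromosome 5 the 2 dense bins (12.5%, one of them partial) held 17% and 15.9%. Bins were called against the autosomal mean, so a chromosome with more peaks overall reaches the bound more easily. The bin from 80 to 90 Mb was the densest of chromosome 10, with 62 and 89 peaks, 3.74 and 3.04 times the autosomal mean. The bins next to it had 2.65 and 2.22 times (90 to 100 Mb) and 2.23 and 2.56 times (70 to 80 Mb). At a finer scale the highest windows lay across the border of these bins, with 22 and 41 peaks between 80 and 81 Mb and 16 and 33 between 79 and 80 Mb. The 1 Mb windows were chosen after the values were seen. In the first of them 17 of the 22 peaks of control replicate 1 were also in control replicate 2. The sparsest full bins of chromosome 10, at 100 to 110, 20 to 30 and 30 to 40 Mb, still had 0.97, 1.0 and 1.24 times the autosomal mean, averaged over the lists. Its only sparse bin was the first, cut short by the unsequenced start.

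Chromosome 11 had a rise between 50 and 80 Mb that ended abruptly. Its bins from 50 to 60, 60 to 70 and 70 to 80 Mb had 30, 36 and 48 peaks in control replicate 1 and 64, 75 and 96 in control replicate 2. The last of these was the densest, at 2.90 and 3.28 times the autosomal mean, and the next bin, 80 to 90 Mb, fell to 13 and 25 peaks, 0.78 and 0.85 times. That bin was the sparsest full bin of the chromosome, followed by 10 to 20 Mb at a mean of 1.02 times and 90 to 100 Mb at 1.12 times. The bin from 90 to 100 Mb differed between the lists, at 0.84 and 1.40 times. The densest 1 Mb window, 74 to 75 Mb, had 12 and 23 peaks, with a median local input of 2.59 times the genome-wide input in both lists. Chromosome 11 had 0 sparse bins.

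Chromosome 5 was the most divided. Its bin from 140 to 150 Mb had 43 and 67 peaks, 2.59 and 2.29 times the autosomal mean, and the partial bin after it 2.62 and 2.96 times. The bins from 130 to 140 and 20 to 30 Mb followed with means of 2.06 and 2.03 times, each below 2 in one list. Between these ends the bin from 90 to 100 Mb had 1 peak in control replicate 1 and 9 in control replicate 2, 0.06 and 0.31 times the mean, and none of them was shared by the lists. The bin from 80 to 90 Mb had 8 and 11 peaks, and the bin from 40 to 50 Mb had 9 and 18.

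**Figure D2:**
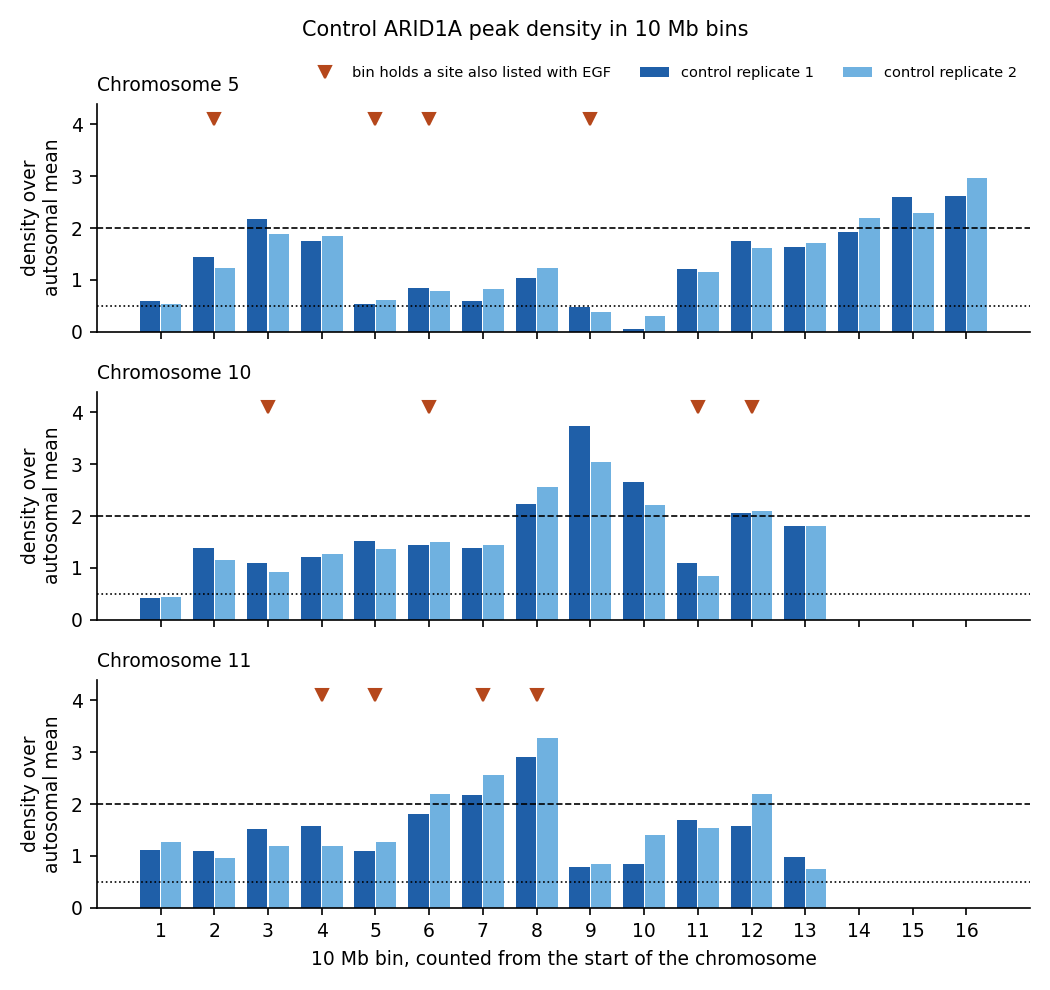
Control peak density over the autosomal mean of its list (vertical axis) in 10 Mb bins counted from the start of each chromosome (horizontal axis); bars are the 2 control libraries, the dashed and dotted lines mark 2 and 0.5 times, and red triangles mark bins with a site also listed with EGF. Chromosome 10 peaks in its bin 9 at 3.74 and 3.04 times, chromosome 11 in bin 8 at 2.90 and 3.28 times, and chromosome 5 rises towards its end.

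Empty stretches were longest on chromosome 5. The longest stretch with no peak in either control list was chr5:54445561-64283294, 9.84 Mb. It was followed on this chromosome by chr5:37327970-42099481 (4.77 Mb) and chr5:81856677-86494865 (4.64 Mb). The longest on chromosome 10 were chr10:45807867-50299381 (4.49 Mb), chr10:62892414-66373123 (3.48 Mb) and chr10:8214076-11025416 (2.81 Mb). Those on chromosome 11 were chr11:12160151-16351582 (4.19 Mb), chr11:90244070-94037096 (3.79 Mb) and chr11:9032242-11753636 (2.72 Mb). By its longest stretch, chromosome 5 ranked 4 of 19 autosomes, while chromosomes 10 and 11 ranked 15 and 16. None of these 9 stretches held an EGF peak. Windows of 1 Mb without a control peak in either list made up 43 of 149 on chromosome 5 (28.9%), 19 of 126 on chromosome 10 (15.1%), 18 of 118 on chromosome 11 (15.3%) and 35.7% on the other autosomes. The longest stretch was 9.86 Mb long by control replicate 2 alone, and by control replicate 1 alone, the smaller list, the longest of the 3 chromosomes was 12 Mb. Whether reads can be aligned throughout such a stretch was not tested.

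Bins with more peaks tended to have more local input. Over the 42 bins, relative density and the median local input of a bin's peaks correlated with r = 0.35 and rho = 0.47 in control replicate 1 and with r = 0.44 and rho = 0.50 in control replicate 2. These bins share a library and its input, and the values are a description. Some bins departed from this. The bin from 40 to 50 Mb on chromosome 5 was thinly filled at an input of 2.59 and 2.33 times the genome-wide level. The bin from 90 to 100 Mb on chromosome 10 was dense at 1.45 and 1.5 times. When peaks below 10 times the local input were left out, the mean r was 0.09. This filter divides by the input, so at equal summit reads a peak over a higher input passes it less easily. Whether that lowered r was not tested. Under this filter 2 of the 8 dense bins stayed dense, both on chromosome 10. They were 80 to 90 Mb, with 27 and 32 such peaks, and 90 to 100 Mb, with 21 and 37.

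**Figure D3:**
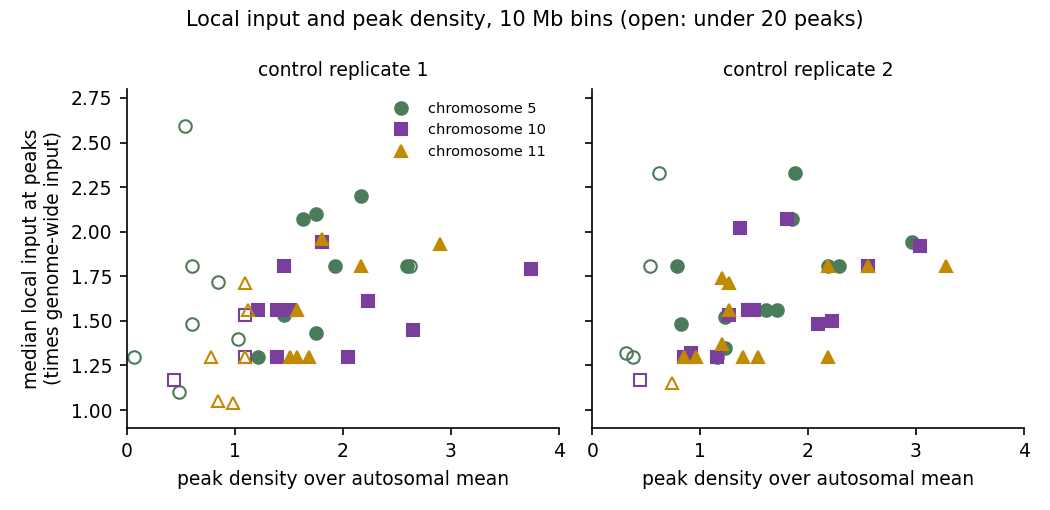
Median local input at the peaks of a 10 Mb bin, in times the genome-wide input (vertical axis), against the bin's peak density over the autosomal mean (horizontal axis), for control replicates 1 and 2; open symbols are bins with under 20 peaks. The points rise together loosely (r = 0.35 and 0.44), with the thin chromosome 5 bin of high input at the upper left.

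Peak width differed little between the 3 chromosomes. Both control lists had a median width of 292 bp on them, against 287 bp on the other autosomes. By chromosome the medians were 289 and 293 bp on chromosome 5, 305 and 296 bp on chromosome 10, and 280 and 288 bp on chromosome 11 (control replicates 1 and 2), inside the ranges of the other autosomes, 257 to 318 bp and 267 to 299 bp. Over bins with at least 20 peaks the medians ran from 228 bp (110 to 120 Mb on chromosome 11) to 366 bp (70 to 80 Mb on chromosome 11) in control replicate 1. In control replicate 2 the same 2 bins had 262 and 318 bp, in the same order and closer together.

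Broad peaks of at least 500 bp made up 120 of 978 (12.3%) and 256 of 1737 (14.7%), where 11% and 12.9% of all control peaks were that wide. The widest peak of control replicate 2 that was also in control replicate 1 was chr10:66383110-66384741 on chromosome 10, with 1632 bp against 669 bp in control replicate 1. It was chr11:53925259-53926687 on chromosome 11, with 1429 against 366 bp, and chr5:115002735-115004084 on chromosome 5, with 1350 against 1000 bp. In each case the width differed between the control lists, and none of the 3 was called with EGF. Their summits reached 24.5 and 26.4, 18.6 and 22.9, and 21.1 and 18.5 times the genome-wide mean of the library in control replicates 1 and 2.

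Peaks on chromosome 10 often had a near neighbour. Another peak of the same list was within 10 kb of 32.8% and 42.9% of them in control replicates 1 and 2, the largest share of any autosome in both lists. By the median distance to the nearest peak in control replicate 1, chromosome 15 was closer, at 25.4 kb against 32.2 kb. Both measures move with the density that chose the chromosomes. The values were 26.5% and 35.5% on chromosome 5, 21.1% and 37.6% on chromosome 11, and 22.5% and 32.9% on the other autosomes.

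Agreement between the control lists was similar on the 3 chromosomes and elsewhere. Of the peaks of control replicate 1, 703 of 978 (71.9%, exact interval 68.9% to 74.7%) shared at least 1 bp with a control replicate 2 peak, where 71.3% of the whole list did. In the other direction it was 699 of 1737 (40.2%, 37.9% to 42.6%), where 40.4% of the whole list did. Of the 3, chromosome 10 had the largest shares, 74.4% (69.6% to 78.8%) and 44.3% (40.2% to 48.3%). Chromosome 5 had 70% and 39.2%, and chromosome 11 had 70.8% and 37.0% (33.1% to 41.1%). By the share of control replicate 2 peaks, chromosome 10 ranked 3 and chromosome 11 ranked 17 of the 19 autosomes. The intervals of the 3 chromosomes overlap in both directions, which does not show that their shares are equal. They cover counting error only, and a difference between chromosomes was not tested.

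Sharing varied between bins, though few peaks stand behind each. Over bins with at least 20 peaks, the share of control replicate 1 peaks found in control replicate 2 ran from 51.9% (120 to 130 Mb on chromosome 5) to 83.3% (50 to 60 Mb on chromosome 10). In dense bins 237 of 315 were shared (75.2%, 70.1% to 79.9%), in sparse bins 7 of 14 (50%, 23.0% to 77.0%), and in the bins between 459 of 649 (70.7%, 67.1% to 74.2%). Shared peaks were wider, with medians of 329 and 384 bp in the 2 lists against 241 and 253 bp for unshared peaks, and had a higher deposited fold, 6.04 and 6.63 against 5.30 and 5.35. Sharing needs only 1 bp, so by construction a wider peak meets it more easily. On the other autosomes the widths were 316 and 366 against 239 and 254 bp, and the folds 6.08 and 6.62 against 5.39 and 5.54. The deposited fold is the authors' own ratio of scaled summit reads to the local input, with 1 added to each. It is therefore smaller than the plain ratio used elsewhere here. At the 703 shared sites the summits of the 2 lists lay a median of 71.0 bp apart, log2 fold correlated with r = 0.533 across sites, which are not replicates, and the difference of log2 fold had an SD of 0.38.

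The highest score of control replicate 2 on the 3 chromosomes lay in one of their emptiest bins. The peak chr5:89981912-89982594 stood in the sparse bin from 80 to 90 Mb, with 33 and 56 reads at its summit in control replicates 1 and 2, which is 27.9 and 49.3 times the genome-wide mean. Its local input was at the genome-wide floor in both lists. The second, chr5:50306998-50307455, had 50 and 62 reads (42.2 and 54.6 times) over an input of 2.07 times. Both were called with EGF. The next on chromosome 5 were chr5:43539530-43540281 with 45 and 53 reads, chr5:30917772-30918639 with 29 and 50, and chr5:151938432-151939029 with 47 and 39. These last 3 were in neither EGF list.

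On chromosome 10 the highest score belonged to chr10:53778771-53779343, with 39 and 53 reads (32.9 and 46.7 times the genome-wide mean), which was called in EGF replicate 1. It was followed by chr10:24678784-24679095 with 38 and 43 reads, chr10:87389619-87390630 with 25 and 40, chr10:88924900-88925427 with 31 and 45, and chr10:37823450-37823906 with 31 and 48. These 4 were called in neither EGF list, and 2 of them lay in the dense bin from 80 to 90 Mb. Control replicate 2 was higher than control replicate 1 at all 5, which the ranking by the score of control replicate 2 favours.

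On chromosome 11 the leading peak was chr11:75912697-75913267, with 31 and 36 reads (26.2 and 31.7 times). Next came chr11:29739606-29740261 with 24 and 36, chr11:67905169-67905992 with 50 and 57, chr11:107238208-107238865 with 30 and 34, and chr11:64541399-64542174 with 27 and 34. The peak from 67905169 had the most reads of the 5 but a deposited fold of 6.71 and 7.95, since its local input was 5.19 times the genome-wide level in both lists. It was the only one of the 5 called with EGF.

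Far fewer peaks of the 3 chromosomes were listed with EGF, 16 and 8, where the control lists had 978 and 1737. Group means were 1358 ± 537 for control and 12 ± 5.66 for EGF (SD, n = 2 each), a log2 ratio of −6.82 or 113-fold fewer. The drop was not particular to these chromosomes. On the other autosomes the means were 4176 ± 1627 and 26.5 ± 20.5, a log2 ratio of −7.30 or 158-fold fewer. The length under peaks on the 3 chromosomes went from 329 and 605 kb to 4.17 and 2.08 kb, 149-fold less (log2 ratio −7.22). With each library left out in turn, that log2 ratio ran from −7.81 to −6.72. In number and in length, each EGF value was lower than each control value. Each gave an exact permutation p of 0.333 (two-sided). This test has 6 assignments of the libraries and cannot give a smaller p, so it cannot reach 0.05 here. The recovered input was shallower behind EGF replicate 1, 0.506 reads per 200 bp of genome, than behind the control lists, 0.771. EGF replicate 2, with 20 peaks, was assigned the value of EGF replicate 1. The difference in input cannot be told apart from the treatment. The fewest reads at a listed summit were 21 in each EGF list and 11 and 10 in the control lists.

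By chromosome, EGF replicates 1 and 2 listed 4 and 4 peaks on chromosome 5, 7 and 3 on chromosome 10, and 5 and 1 on chromosome 11. With so few EGF peaks per chromosome, the folds were not ordered by chromosome. The share of a list on the 3 chromosomes was 24.3% and 24.4% in control replicates 1 and 2, and 28.1% (17% to 41.5%) and 40.0% (19.1% to 63.9%) in EGF replicates 1 and 2. The difference of means was 9.69 percentage points (exact two-sided permutation p = 0.333, the smallest possible). The intervals of both EGF libraries include the control shares, and the difference was 3.73 points without EGF replicate 2 and 15.7 points without EGF replicate 1.

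Nearly all sites listed with EGF were control sites. The 2 EGF lists merged into 17 regions on the 3 chromosomes, of which 16 (94.1%, exact interval 71.3% to 99.9%) overlapped a peak in both control lists, where 96.7% of all EGF regions did. With an overlap of 50% of both peaks required, the share was 29.4%, and EGF peaks had median widths of 225 and 238 bp. Of the 17, 7 were in all 4 lists, 9 in both control lists and 1 EGF list, and 1 in control replicate 1 and EGF replicate 1. In the other direction, 16 of the 703 shared control sites (2.28%, 1.31% to 3.67%) overlapped an EGF peak, where 2.05% of all shared sites did. The shares were 2.25%, 2.22% and 2.37% on chromosomes 5, 10 and 11, and 2.0% on the other autosomes. Over the 3 chromosomes the share was 0.921% without control replicate 1, 1.14% without EGF replicate 1 and 1.28% with an overlap of 50% of both peaks.

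Shared control sites were also compared at the level of the EGF summits. The lowest summit in any EGF list, over all chromosomes, stood at 17 times the genome-wide mean. Of the 703 shared control sites, 310 reached that level in both control lists, and 16 of them (5.16%, 2.98% to 8.25%) overlapped an EGF peak, where 5.15% of all such sites did. This restriction takes its bound from the EGF lists and was chosen after the data were seen. All 16 called sites met it, so the share rose from 2.28% only because fewer sites were counted. Nothing is read from that rise. Those 16 had a median of 28.3 times the genome-wide mean in control replicate 1 and the other 294 had 21.1 times, with local input at 2.59 and 2.33 times the genome-wide input.

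EGF regions lay both in dense bins and outside them. The 8 dense bins held 32.2% and 31.7% of the control peaks of the 3 chromosomes, and 4 of the 17 EGF regions. Of the 8 dense bins, 3 held a region, among 12 of all 42 bins that did (17.4% of all autosomal bins). Both dense bins of chromosome 11 held regions, 3 of that chromosome's 5, the dense bins of chromosome 10 held 1 of 7, and those of chromosome 5 held 0 of 5. On chromosome 5, none lay beyond 90 Mb. Among shared control sites at or above 17 times the genome-wide mean, 4 of 109 in dense bins (3.67%, 1.01% to 9.13%) and 11 of 199 in the bins between (5.53%, 2.79% to 9.68%) were called with EGF. In sparse bins it was 1 of 2. The intervals of the dense bins and the bins between overlap, and a difference was not tested.

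Most EGF sites had a high control score, with a few low ones in control replicate 1. Their median percentile was 87.6 over 17 sites in control replicate 1 and 98.3 over 16 sites in control replicate 2. By this score, 6 of 17 were among the 10 highest of their chromosome in control replicate 1, and 8 of 16 in control replicate 2. The chromosomes had 298 to 363 peaks in control replicate 1 and 561 to 601 in control replicate 2. A total of 3 of the 17 sites lay below the median score of control replicate 1, against 0 of 16 in control replicate 2. The 3 were chr5:42867890-42868154, chr10:26548633-26548838 and chr10:24792570-24792777, at percentiles 8.78, 33.4 and 44.4 of control replicate 1. The first of these had 23 and 26 summit reads in control and 25 and 38 with EGF. Behind both control lists its local input was 3.0 reads per 200 bp, but 0.600 in EGF replicate 1 and 1.0 in EGF replicate 2. The second had 14 reads in control replicate 1, 21 in EGF replicate 1 and no call in the other libraries. The last had 27 and 33 reads in the control lists and 27 in EGF replicate 1.

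Summit reads at the 7 sites in all 4 lists were compared on 2 scales. Divided by the genome-wide mean of the library, EGF means ranged from 0.508 to 1.28 of control means, with 0.818 as the median (log2 −0.29). Divided by the local input of the same list, they ranged from 0.422 to 3.26, with 0.891 as the median (log2 −0.17). Over all 16 such sites of the genome the medians were 0.807 on the first scale and 1.38 on the second, so the direction by local input was not that of the 7 sites. On the first scale the EGF pair lay wholly below the control pair at 3 of the 7 sites and wholly above it at 1, where 62.5% and 18.8% of all sites in 4 lists did. On the second it lay below at 2 and above at 3, where 31.2% and 50% of all such sites did. Being listed with EGF is what chose these sites, and no single site was tested.

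Below control by both scalings were chr5:89982077-89982398 and chr10:110485057-110485318. The first stood at 27.9 and 49.3 times the genome-wide mean in control, and at 19.8 and 19.5 times with EGF. Its control libraries differed more from each other, with an SD of 15.2, than control replicate 1 differed from the EGF libraries. The second went from 26.2 and 34.4 times to 23.5 and 26.0, so that EGF replicate 2 lay just under control replicate 1.

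Above control by both scalings was chr5:42867890-42868154, at 19.4 and 22.9 times the genome-wide mean in control, and at 23.5 and 30.8 times with EGF. The gap between the groups, from 22.9 to 23.5, was smaller than the spread within either.

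At 2 sites the direction changed with the scaling. The site chr11:67905556-67906001 had 42.2 and 50.2 times the genome-wide mean in control, against 29.2 and 31.6 times with EGF (log2 −0.60). Over the local input the same reads gave 8.14 and 9.68 against 23.8 and 25.8 (log2 1.48). At chr10:56767550-56767846 the values over the genome-wide mean were 30.4 and 39.6 against 33.9 and 21.9, which overlap. Over the local input they were 11.7 and 15.3 against 33.9 and 21.9, which do not. The local input at this site was 2.00 reads per 200 bp for each control library. For each EGF library it was 0.506, the genome-wide floor, so the same limit holds.

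At the remaining 2 sites the groups overlapped by both scalings. The site chr5:13477604-13477907 had 37.2 and 30.8 times the genome-wide mean in control, against 32.0 and 26.0 times with EGF. The site chr10:107366836-107367199 had 25.3 and 30.8 against 26.4 and 21.1.

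**Figure D4:**
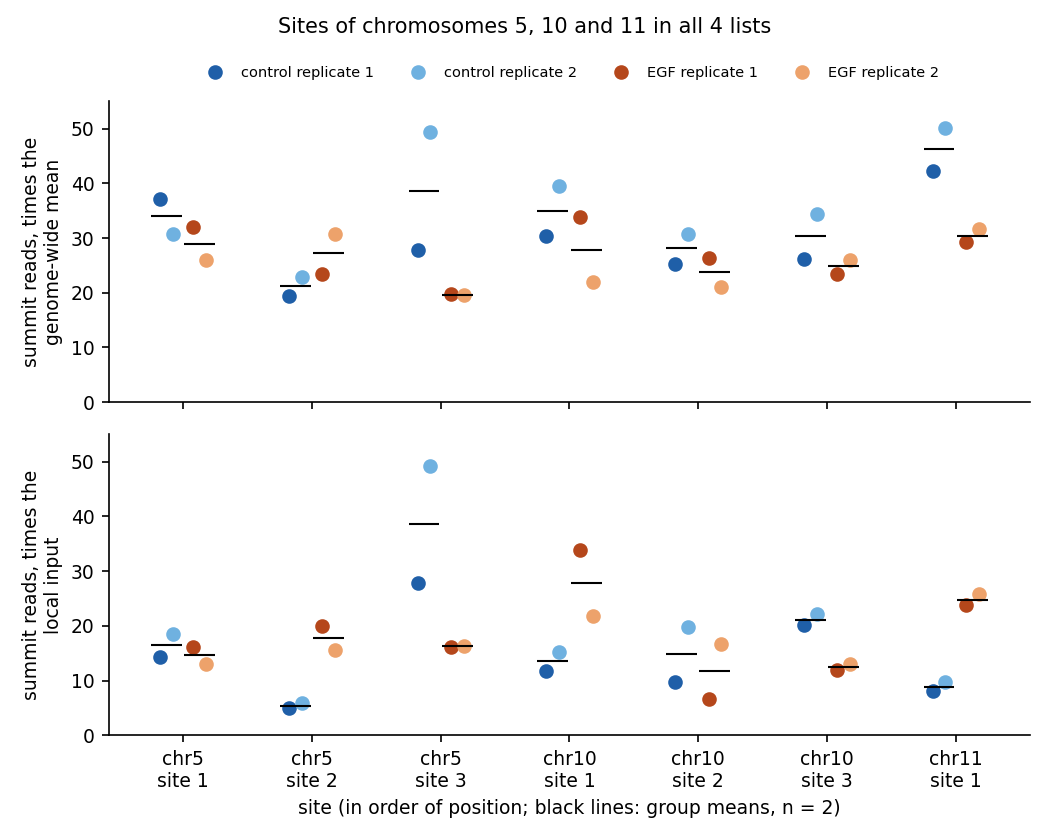
Summit reads at the 7 sites in all 4 lists, in times the genome-wide mean of the library (upper panel) and in times the local input (lower panel); points are libraries, black lines are group means (n = 2), and sites are numbered by position within each chromosome. The chromosome 11 site lies lower with EGF in the upper panel and higher in the lower one, while chromosome 5 site 3 lies lower in both.

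The other 10 EGF regions were missing from one EGF list. Of these, 9 were listed in EGF replicate 1 alone. Those on chromosome 10 were chr10:24792570-24792777, chr10:26548633-26548838, chr10:53778989-53779212 and chr10:59370593-59370932, with 27, 21, 35 and 28 reads in EGF replicate 1. Those on chromosome 11 were chr11:38278558-38278768, chr11:43000144-43000360, chr11:70314112-70314324 and chr11:74860537-74860745, with 31, 28, 23 and 28 reads, and the one on chromosome 5 was chr5:15239961-15240210 with 29. The region chr5:50307106-50307346 was in EGF replicate 2 alone, with 39 reads. It lies in the control peak that ranked 1 and 2 by score on chromosome 5 in control replicates 1 and 2, and it was not called in EGF replicate 1.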

How the data were processed

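A separate peak list was deposited for each library by the authors, in the format of MACS2. The submitters' processing notes name MACS2 2.1.1.20160309.0 and, besides it, deepTools 3.0.2, Bowtie2 2.3.4.2, SAMtools and the build mm9. For their options, the sources used here give nothing. As deposited, a score equals the −log10 q multiplied by 10 and rounded down. The deposited fold ratio, −log10 p and −log10 q belong to the summit.

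Whole reads and local input at each summit were recovered from the deposited fold and −log10 p, with the Poisson tail of MACS2 and 1 scaling factor per library. The windows (1 and 10 kb) and the extension (200 bp) are inferred from the values. Each of the peaks had exactly 1 solution within 2e-04 of the deposited −log10 p. EGF replicate 2, with 20 peaks, was given the background of EGF replicate 1. This gave a genome-wide ChIP mean, per 200 bp, of 1.184 and 1.135 reads for the control libraries (replicate 1, then 2) and 1.062 and 1.233 for the EGF libraries. The recovery, overlaps and bins were tested on simulated data.

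Density was counted by summit over the mm9 chromosome lengths from 3 Mb on, where the sequence starts; the lengths are those of the public assembly and are in no file used here. All autosomal peaks lie inside them. Groups were compared by exact permutation over the 6 assignments of libraries. Shares carry exact Clopper-Pearson intervals at the 95% level. Python 3.11.15, scipy 1.17.1 and pandas 2.3.3 were used.

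Named on each chromosome were the 5 highest shared control peaks by score in control replicate 2, the 3 densest and 3 sparsest full bins, the 3 longest stretches without a control peak and the widest shared peak, and every EGF region. Members, rules and alternatives were chosen with earlier results of these data known. Planned gene and sequence analyses were not run, since the reference used here is GRCm38.p6. The pairing of replicate numbers is given with the alternatives.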

Additional observations from a re-analysis of the deposited data

How the results depend on the processing

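Alternatives were run for 13 summary results and for the 7 single sites in all 4 lists, 139 values in all; 106 kept their direction or stayed within the interval, spread or 1.5-fold range of the value reported, 29 moved and 4 reversed. With 50% of both peaks required to overlap, 56.0% of control replicate 1 peaks were shared in place of 71.9%, 1.28% of shared control sites were called with EGF in place of 2.28%, and 29.4% of EGF regions were in both control lists in place of 94.1%. With only peaks at 10 times the local input or more, the shared percentage was 63.4%, the density ratio to the other autosomes 1.35 in place of 1.66, the dense bins 2 in place of 8, the median width 331 bp in place of 292 bp and the mean correlation of input with density 0.09 in place of 0.39. The density ratio was 1.64 with peaks within 500 bp merged, 1.52 without the densest bin of each chromosome and 1.77 against the other autosomes without chromosome 15. Bins of 5 Mb gave 15 dense and 7 sparse bins and a correlation of 0.22, and bins shifted by 5 Mb gave 1 sparse bin in place of 3. The median width was 296 bp at a q of at most 0.005, 304 bp with near peaks merged and 288 bp without the densest bins. Shared control sites at or above the lowest EGF summit were called with EGF in 5.16%. With each library left out in turn, the share of control sites called with EGF ran from 0.921% to 2.13%, the share of EGF regions in the control lists from 93.8% to 100%, and the longest empty stretch from 9.86 to 12 Mb. Peak number then gave log2 ratios between −7.41 and −6.35, and −6.27 with one p bound in all lists. At chr10:56767550-56767846 the log2 ratio was −0.33 by the genome-wide mean, 1.05 over the local input and 0.10 by the deposited fold. At chr11:67905556-67906001 it was −0.60, 1.48 and 0.46. These last alternatives, and the filter at 10 times the local input, divide by the local input by construction, the deposited fold with 1 added to both sides. The causes of the other changes were not tested. A replicate block gave −6.85 as the log2 ratio for peak number, −7.24 for length, 9.69 points for the share and −0.28 for summit reads; 2 pairs allow no exact permutation p below 0.5. The libraries share only a number, and deviations of same-numbered libraries at 16 sites correlated at r = −0.0893. The alternatives with at least 20 peaks per bin, without chromosome 15, with the lowest EGF summit, with EGF peaks in the stretches, with width among peaks far above input and with EGF regions against 1 control list were chosen after the data were seen. Alternatives for sequence content were not run. A site missing from an EGF list is not shown to lack ARID1A, since EGF replicate 1 had a shallower input and that of EGF replicate 2 was not measured apart, and no read total is given for any library.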
